A study of Vitis vinifera with 4 samples.

Results

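Spaced pairs of MYBPA1 binding events were neighbouring events whose centres stood over 200 and at most 1000 bp apart, with no further event within 1000 bp of either. They were chosen by the positions of the event centres alone, in the authors' list of 30318 events. On chr01 to chr19, which held 29836 events, 2149 such pairs were found, with 4298 events or 14.4% of that total. Single events with no neighbour within 1000 bp numbered 21398, tight pairs at most 200 bp apart numbered 1288, and 1564 events stood in groups of 3 or more. The events came from DNA affinity purification sequencing (DAP-seq), which measures which pieces of purified genomic DNA a tagged protein can retain in the tube. The design held 2 libraries of HALO-tagged MYBPA1 and 2 of pIX-HALO, the tag alone, both groups with young-leaf DNA of Pinot Noir and with protein made in rabbit reticulocyte lysate. All DNA came from 1 grapevine clone, PN-94, and the assay has neither chromatin nor the plant's own partner proteins.

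MYBPA1 (gene Vitvi15g00938) is a grapevine MYB protein of the R2R3 type, known as an activator of proanthocyanidin (condensed tannin) synthesis. Proteins of this type contact short DNA elements through paired MYB repeats, and in plants many act together with bHLH and WD40-repeat proteins. Several sites close together on one stretch of DNA are a common feature of plant promoters and enhancers, and in an affinity assay 1 long fragment can carry both sites of a close pair. The list was given as a narrowPeak file whose name points to GEM, an event caller that is known to fit nearby events jointly and to divide the reads of a fragment pile among them. No gene, motif or base sequence is attached to the pairs here, since the gene models and sequence of these coordinates were not used.

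Each event has a signal value, which is the authors' own and has no stated scaling, and a −log10 p. All events in the list had a q of 0.01 or below. The list has 1 value per event and none per library, so no value can be set against the spread between libraries and no difference between kinds of events was tested. The depth behind the list is unknown. The 95% intervals below are Wilson intervals for shares and order-statistic intervals for medians. They cover counting error only, and events that share fragments are not independent.

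The gaps were spread over the whole range and became sparser with distance. The median gap was 502 bp (95% interval 484 to 521), with quartiles of 330 and 720 bp. Gaps over 200 to 300 bp held 430 pairs, or 4.30 per bp of gap, and gaps over 900 to 1000 bp held 177, or 1.77 per bp. Among tight pairs, which the distance bound left out, there were 6.44 per bp as a mean over gaps of 1 to 200 bp, within which they were not evenly spread. Of all neighbouring events, larger groups included, 474 stood up to 100 bp apart, 1129 over 100 to 200 bp and 548 over 200 to 300 bp. No single spacing stood out by number. The most frequent exact gap was 345 bp, with 10 pairs on 6 chromosomes, and 5 gaps (206, 225, 240, 433 and 447 bp) occurred 9 times each, against a mean of 2.69 pairs per bp. Of the 10 pairs at 345 bp, the right event was the stronger in 5. Of the 800 possible gap lengths, 723 occurred at least once.

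The decimals of the signal values changed sharply with the gap. In 910 of the 2149 pairs (42.3%, 40.3 to 44.4%) neither signal was a whole number, but both together were, within 0.01. The strongest spaced pair, for example, had signals of 29.5 and 1730.5, which add up to 1760. At gaps of up to 500 bp, 851 of 1071 pairs (79.5%, 76.9 to 81.8%) had this property. From there to 550 bp it was found in 48 of 135 pairs (35.6%, 28.0 to 43.9%), and over 550 bp in 11 of 943 (1.17%, 0.653 to 2.08%). The longest gap of the main run was 544 bp, and over 550 bp the remaining pairs of this kind were scattered.

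The same step appeared when pairs with 2 values that were not whole were taken alone. Up to 550 bp, 974 pairs had 2 such values, and their sum was whole in 92.3% (90.5 to 93.8%). Beyond it only 81 pairs had 2 such values, and their sum was whole in 13.6% (7.76 to 22.7%). How often 2 unrelated values with decimals would give a whole sum was not computed. Just past the step, at gaps over 550 to 600 bp, both signals were whole in 105 of 120 pairs (87.5%). With greater distance this share declined to 71.7% at over 600 to 700 bp and 48.4% at over 700 to 1000 bp, where 41.6% of pairs had 1 value that was not whole. Among single events 30.1% of the signals were not whole, against 82.0% of the events in spaced pairs up to 550 bp and 24.6% in those beyond. Among tight pairs, 885 of 1288 (68.7%) had 2 values with decimals and a whole sum. Because of this step, results on signal are given below for both sides of 550 bp. Whether the caller's division of reads made these sums was not tested.

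**Figure D1:**
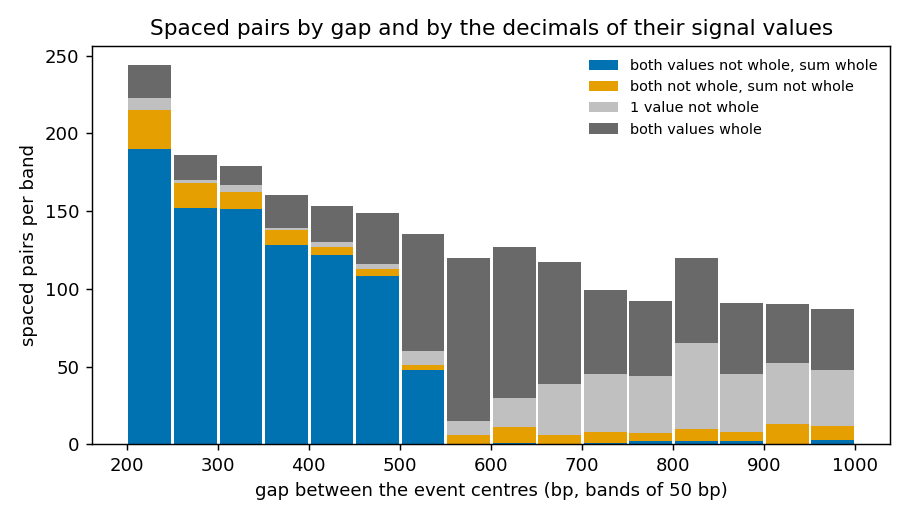
Number of spaced pairs in bands of 50 bp of the gap between event centres (horizontal axis, bp), with each bar divided by whether the signal values of the pair and their sum are whole numbers. Pairs with 2 values that are not whole and a whole sum fill most of each bar up to 500 bp, drop to 48 of 135 at over 500 to 550 bp and nearly vanish beyond.

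The typical event of a spaced pair was about as strong as a single event. The median signal was 49.05 (48.0 to 50.5) in spaced pairs, 48.0 (47.4 to 48.0) in single events, 62.1 (59.5 to 64.6) in tight pairs and 54.9 (53.0 to 57.2) in groups of 3 or more. The lowest signal of a spaced-pair event was 22, the lowest of the whole list, and the highest was 1730.5. The median was 47.8 (46.6 to 49.5) up to 550 bp and 51.0 (49.0 to 53.0) beyond, and only the latter interval lay above that of single events. A −log10 q of at least 5 was reached by 2483 spaced-pair events (57.8%, 56.3 to 59.2%), close to the 58.5% of all events on chr01 to chr19 and to the 56.2% (55.5 to 56.8%) of single events. By side, it was reached by 57.1% (55.1 to 59.1%) of spaced-pair events up to 550 bp and by 58.6% (56.4 to 60.8%) beyond. Of tight-pair events, 75.04% reached it. In signal and in q the middle of the distribution therefore lay near that of single events and below that of tight pairs.

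The upper tail was longer than that of single events. In spaced pairs the 90th percentile of the signal was 141 and the 99th was 442, against 124 and 333 in single events. Both were higher still in tight pairs, with 190 and 514, and in groups of 3 or more, with 171 and 455. The top 10% of chr01 to chr19, at signals of 134 or more, held 10.1% of all events, 10.9% (10.04 to 11.9%) of spaced-pair events and 8.59% (8.23 to 8.98%) of single events. At 189 or more, which 5.02% of all events reached, the shares were 5.89% (5.22 to 6.63%) and 3.996% (3.74 to 4.27%). At 381 or more, reached by 1.0% of all events, they were 1.40% (1.09 to 1.79%, 60 events) and 0.715% (0.611 to 0.837%, 153 events). In the top 10%, the share was 11.6% (10.4 to 12.9%) up to 550 bp and 10.07% (8.80 to 11.5%) beyond, the latter near that of all events. In the top 5% it was 6.34% (5.44 to 7.39%) and 5.30% (4.38 to 6.41%), and in the top 1% it was 1.45% (1.05 to 2.01%) and 1.33% (0.899 to 1.95%). Over all gaps the intervals of spaced pairs and single events do not overlap in any of the 3 classes, and single events were below the share of all events in each. The spaced-pair interval held the share of all events in the top 10% and lay just above it in the other 2 classes. Beyond 550 bp the spaced-pair interval held the share of all events in all 3 classes. There it overlaps that of single events in the top 10% and not in the other 2 classes. The single event with the highest signal, 4280, was nevertheless stronger than any in a pair. The 90th percentile was higher in spaced pairs than in single events on 15 of 19 chromosomes, and the median was higher on 12, lower on 6 and equal on 1.

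**Figure D2:**
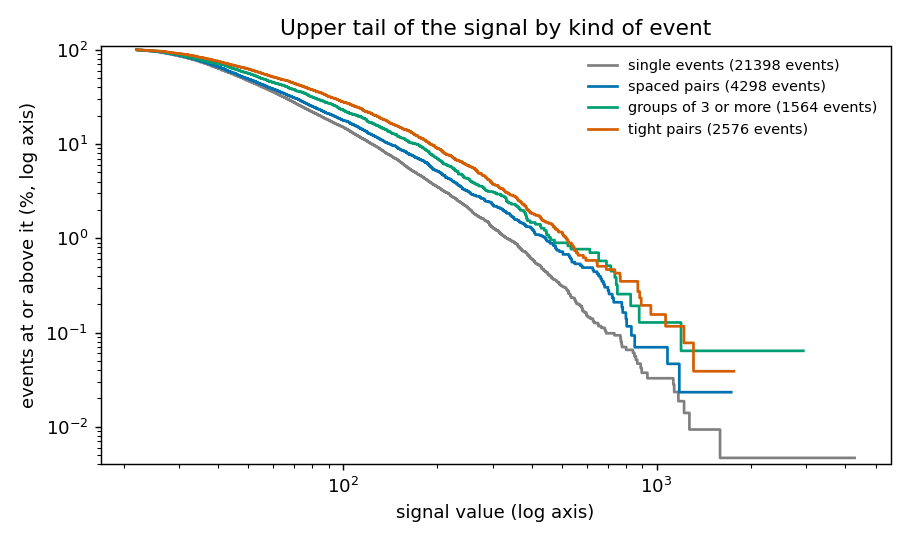
Share of events (vertical axis, %, log scale) with at least the signal value on the horizontal axis (log scale), for single events, spaced pairs, groups of 3 or more and tight pairs. The curve of spaced pairs starts with that of single events at low signals and lies between it and the curve of tight pairs from about 100 to 400.

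At like signal, spaced pairs and single events had like p. In the band of signals from 40 up to but not including 60, the median −log10 p was 5.99 (quartiles 4.30 and 8.18) for 1202 spaced-pair events and 5.85 (4.36 and 7.94) for 6069 single events. It was 6.42 for pairs up to 550 bp and 5.78 beyond, and 7.40 for 628 events of tight pairs. Among pairs the median therefore fell from tight to distant ones, but single events lay slightly above pairs beyond 550 bp. These medians have no intervals, and the quartiles overlap throughout.

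The 2 events of a spaced pair were usually unequal. The median ratio of the stronger to the weaker signal was 1.65 (1.61 to 1.71), with quartiles of 1.25 and 2.53. The stronger events had a median signal of 71.7 and the weaker a median of 38.3. Because each pair was sorted by signal, the stronger would exceed the weaker in any set of unequal pairs. These medians, the ratio and the shares by ratio are therefore descriptions only, and no ratio is given for neighbours over 1000 bp apart. A ratio of 2 or more was found in 787 pairs (36.6%), of 5 or more in 164 (7.63%) and of 10 or more in 28 (1.30%). The median ratio was 1.65 up to 550 bp and 1.64 beyond, and 1.69 in tight pairs, so it barely moved with distance. Across the pairs the rank correlation of ratio and gap was 0.016. The stronger event lay to the right, at the higher coordinate, in 1098 of 2136 unequal pairs (51.4%, 49.3 to 53.5%), an interval that includes 50%, and in 13 pairs both signals were equal.

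The strength of one event told little about that of its partner. The rank correlation of left and right signals over the 2149 pairs was 0.119 (Pearson's r of the log2 signals 0.119), 0.126 up to 550 bp and 0.106 beyond. It is given as a description across pairs of 1 list, which share libraries and depth. It was highest at over 200 to 300 bp, with 0.234, and between −0.005 and 0.144 in each of the other 7 bands of 100 bp. For comparison, tight pairs gave 0.305, and neighbouring events over 1000 to 2000 bp apart gave 0.056. Among all neighbouring events, those in larger groups included, it was 0.441 at up to 100 bp. It was 0.172 at over 100 to 200 bp and 0.187 at over 200 to 300 bp, so the drop lay within the range of tight pairs. Both events lay on the same side of the median signal of all events in 1154 spaced pairs (53.7%, 51.6 to 55.8%), against 60.7% (58.0 to 63.3%) of tight pairs. Among all neighbouring events this share was 74.5% at up to 100 bp, 55.2% at over 100 to 200 bp and 55.3% at over 200 to 300 bp. Among neighbours over 1000 to 2000 bp apart the share was 52.2% (50.2 to 54.2%), an interval that overlaps that of spaced pairs. Among the 50% of events with the highest signal, with pairs rebuilt, the correlation was 0.012 and the same-side share 50.6%. Per chromosome the correlation was positive on 18 of 19 and ranged from −0.01 on chr13 to 0.25 on chr07.

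**Figure D3:**
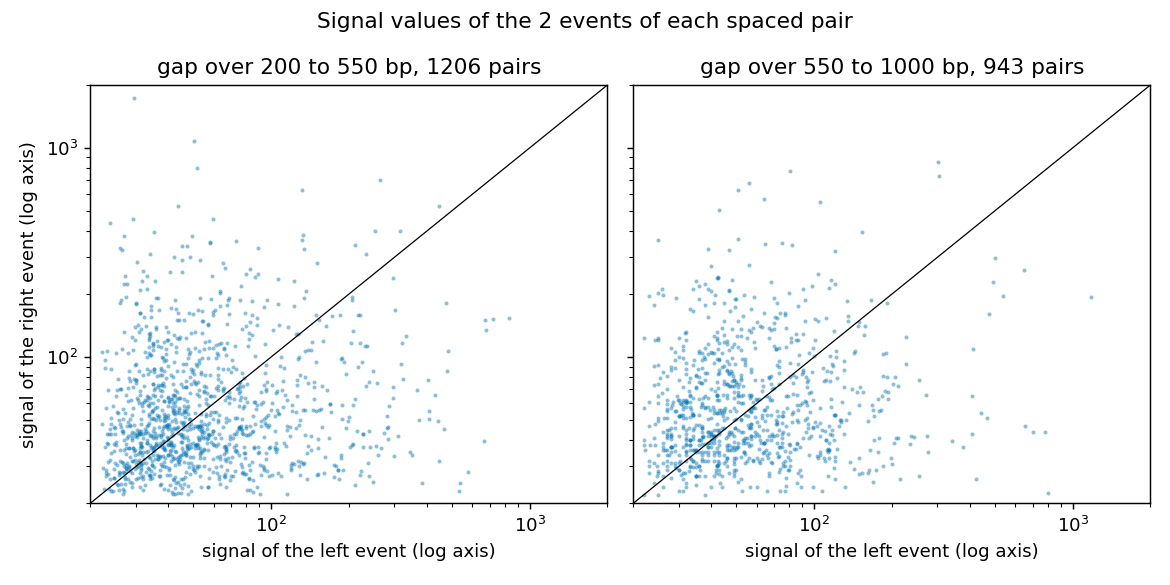
Signal of the left event (horizontal axis, log scale) against that of the right event (vertical axis, log scale), with 1 point per spaced pair, for gaps over 200 to 550 bp and over 550 to 1000 bp; the line marks equal signals. The points form a broad cloud about the line in both panels, and the strongest events mostly sit beside a partner of ordinary signal.

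Strong events had a strong partner somewhat more often than other events had, but such pairs were few. Both events were in the top 10% by signal in 42 pairs (1.95%), 1 event in 386 pairs and neither in 1721. Of the 470 events in the top 10%, 17.9% had a partner in the top 10%, compared with 10.1% of the 3828 others. Beyond 550 bp the shares were 17.9% and 9.20%, with both events in the top 10% in 17 pairs. For the top 5% they were 11.9% and 5.51% over all gaps. Beyond 550 bp they were 14.0% and 4.82%, with both events in the top 5% in only 7 pairs. For the top 1% there, none of 25 strong events had a strong partner, against 1.34% of the others. The top 1% gave 3.33% and 1.37% over all gaps, the former from 1 pair. These shares are given without intervals. Over all gaps, both events were in the top 5% in 15 pairs and in the top 1% in 1 pair. A −log10 q of at least 5 was reached by both events in 730 pairs (34.0%), by 1 event in 1023 (47.6%) and by neither in 396 (18.4%).

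The strongest pairs lay on 5 chromosomes. The highest summed signal, 1760, belonged to a pair on chr08 with centres at 15177336 and 15177704, a gap of 368 bp. Its right event, of signal 1730.5, was the sixth strongest of the whole list, while its left event had 29.5 and a −log10 p of 2.95, near the end of the list. A pair on chr14 at 12260235 and 12260911 had signals of 1182 and 193, which are both whole and stood 676 bp apart. Another chr08 pair, at 8869467 and 8870286, had its stronger event, of signal 852, on the right at a gap of 819 bp. The third on chr08, at 17810283 and 17810694, again joined a strong right event of 1083.6 to an ordinary left one of 50.4. These first 4 pairs had ratios of 58.7, 6.12, 2.83 and 21.5, all above the upper quartile of spaced pairs, 2.53. Among the 10 strongest pairs the ratio ran from 1.18 to 58.7.

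Chr12 held 2 of the 10 strongest pairs, and they stood only 13599 bp apart. One, at 1717115 and 1717594, had signals of 722.6 and 152.4. The other, at 1731193 and 1732154, had 303 and 730. In the first the left event was the stronger and in the second the right. Chr01 also held 2, with 831.4 and 153.6 at 24156769 and 24157111, and with 444.7 and 525.3 at 23141427 and 23141754. A pair on chr10 at 16339014 and 16339273, with 264.9 and 705.1, lay 10422 bp from a larger event of signal above 1000. The last, on chr14 at 26291355 and 26292061, had 646 and 260. In 6 of the 10 pairs the signals were not whole and their sum was, and each of these had a gap under 500 bp.

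**Figure D4:**
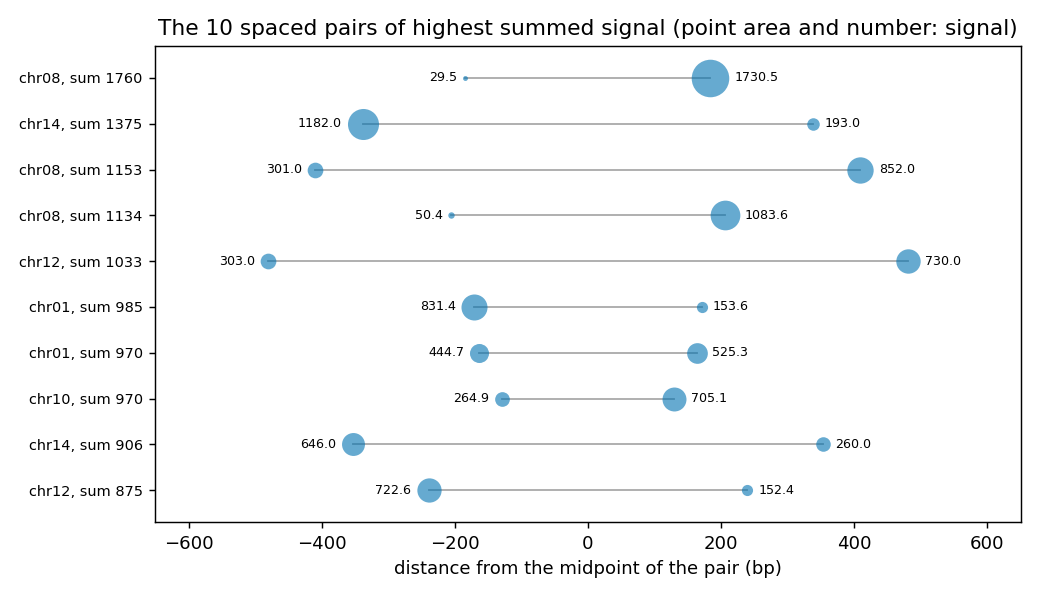
The 10 spaced pairs of highest summed signal, 1 per row, with each event drawn at its distance from the midpoint of the pair (horizontal axis, bp) and a point whose area is proportional to its signal, printed beside it. Gaps run from 259 to 961 bp, and the larger event is on the left in some pairs and on the right in others.

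In 5 pairs the weaker event had a signal of 299 or more. The most balanced of these was the chr01 pair at 23141427, where the signals differed 1.18-fold and the −log10 p values were 134 and 135. It was also the only spaced pair with both events in the top 1%. A pair on chr12 at 4729360 and 4729708 had 316.6 and 401.4, a 1.27-fold difference. On chr19, at 8495474 and 8496341, the signals were 503 and 299. The other 2 were the chr12 pair at 1731193 and the chr08 pair at 8869467, given above. Of these 5, 3 had gaps over 800 bp and whole signals.

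At the other extreme stood pairs of a strong event and a much weaker one. After the strongest chr08 pair, the highest ratios were 35.7 on chr14, where 803 and 22.5 stood at 24023596 and 24024535, and 23.1 on chr13, where 532 and 23.0 stood at 1400329 and 1400767. The chr08 pair at 17810283, given above, followed with 21.5, and its weaker event, of signal 50.4, was above the median of all events. The fifth was a pair on chr04 at 21169923 and 21170329, with 536.9 and 25.1. In the 28 pairs with a ratio of 10 or more, the weaker event had a median signal of 33.1 and at most 56.0, whereas the stronger had a median of 516. Such pairs made up 1.49% of those up to 550 bp and 1.06% of those beyond. A pair near the median of summed signal, 112, was that on chr01 at 10318613 and 10319188, with signals of 57 and 55.

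The distance bounds fall within a continuous range of pairs. At the lower bound, 6 pairs exceeded 200 bp by 1 bp, among them 30.9 and 44.1 on chr07 at 7370843, 120.2 and 58.8 on chr07 at 25583175, and 26.4 and 24.6 on chr09 at 22760308. Just outside, 6 tight pairs had a gap of 200 bp, with summed signals from 63.0 to 163.1. At the upper bound, 3 pairs had a gap of 1000 bp, with signals of 105 and 35 on chr07 at 3463260, 178 and 55 on chr10 at 432386, and 65 in both events on chr18 at 725787. The nearest single events beyond it stood 1002 bp apart on chr01, with 96.4 and 40, and 1004 bp apart on chr17, with 43.0 and 132.9.

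Spaced pairs were found on all 19 chromosomes in similar proportion to the other events. They held a mean of 14.4% ± 1.01 (SD over 19 chromosomes) of a chromosome's events, from 12.7% (10.9 to 14.7%) on chr15 to 16.0% (14.4 to 17.7%) on chr08. The interval held the share over all chromosomes on 18 of the 19. By number, chr18 had the most pairs, 161, and chr15 the fewest, 74. Per Mb of the span from first to last event, chr08 had 6.74 pairs and chr16 had 3.57. The median signal of members ranged from 46 to 53.3 and the median ratio from 1.49 to 1.88 between chromosomes.

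**Figure D5:**
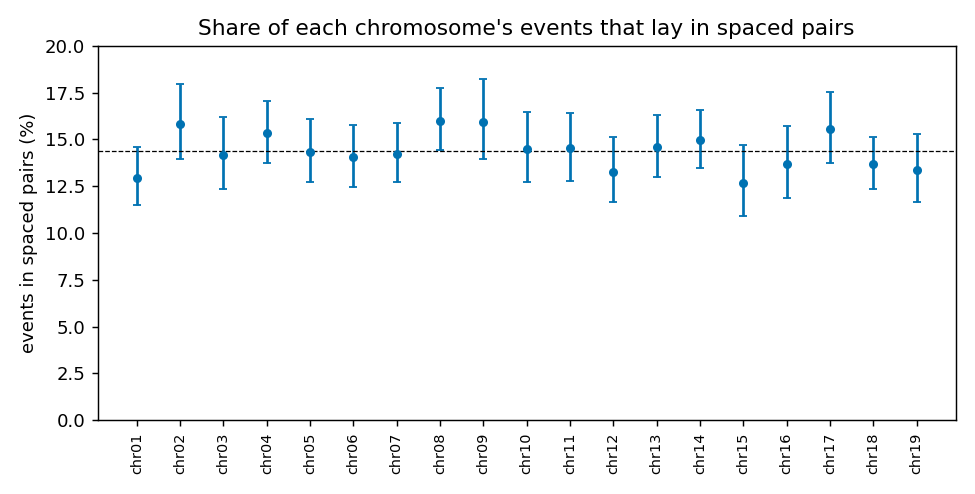
Share of the events of each chromosome (%) that lay in spaced pairs, as points with 95% Wilson intervals; the dashed line is the share over all 19 chromosomes, 14.4%. All points lie between 12.7 and 16.0%, and most intervals include the line.

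The surroundings of spaced pairs were much like those of single events. A median of 8 other events lay within 50 kb of a spaced-pair event, the partner not counted (quartiles 6 and 11), and 8 (5 and 11) within 50 kb of a single event. The nearest event outside the pair was a median of 4720 bp away, against 4908 bp for the nearest neighbour of single events. The grouping rule keeps other events over 1000 bp away from both kinds, so both distances have the same lower bound and part of this likeness is set by the rule. From one spaced pair to the next the median distance was 119370 bp. In 240 cases the next pair followed within 20 kb and in 64 within 5 kb. The closest, named after its values were seen, was on chr07, where a pair at 20121163 and 20121649 (44.8 and 26.2) was followed 1107 bp later by one at 20122756 and 20123005 (46.8 and 71.7). The window of 1 Mb with the most pairs was chr02 from 8000001 to 9000000, with 15 pairs among 102 events, and the next was chr13 from 1000001 to 2000000, with 13 among 116. Of 467 windows with an event, 29 held no spaced pair.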

How the data were processed

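The list of MYBPA1 events was made by the authors. The submitters' processing notes name the tools fastp 0.21.0 and Bowtie2 2.0. The caller (GEM) is known from the name of the list alone. Its settings, the genome build, the control and the use of both libraries were not given in the sources used. The deposited list gives a display score (not used), a signal and −log10 values of p and q, with decimal commas read as points. Positions count from 1.

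Events on chr01 to chr19 at most 1000 bp apart were joined, and groups of exactly 2 with a gap over 200 bp were kept. Signals within 0.01 of an integer were counted as whole. Members, measures and named pairs (10 by summed signal, 5 by ratio, 5 by weaker signal, those at the bounds and the median) were chosen with earlier results of these data known. The division at 550 bp followed the decimals seen here. The pair search was checked on simulated data. Alternatives changed the events kept, the isolation, the gap or chr00. Python 3.11.15, numpy 2.4.6, pandas 2.3.3 and scipy 1.17.1 were used.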

Additional observations from a re-analysis of the deposited data

How the results depend on the processing

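Of 48 values (8 results under 6 alternatives), 28 stayed within a tolerance of the reported value and 20 moved. Some moves were set by the alternative itself, such as fewer pairs and a longer median gap where short gaps were dropped. The tally is therefore not a plain measure of robustness. The tolerance was 1.5 times for the number of pairs, 1 SD over chromosomes for the correlation and the counting interval otherwise. Keeping events with −log10 q of at least 5 left 829 pairs, with a median signal of 74.0, a difference of 5.0 from single events and 100% at that q by construction. The 50% of events with the highest signal gave 682 pairs, with a median gap of 545.5 bp, signal 80.35, difference 4.35, ratio 1.57, 92.4% at that q, 50.6% on the same side of the median and a correlation of 0.012. This selection acts on signal itself and narrows its range. Gaps over 400 bp left 1380 pairs, with a median gap of 654 bp, signal 51.0 and difference 3.0. Gaps over 550 bp, an alternative chosen after the data were seen, left 943, with 754 bp, 51.0 and 3.0. Requiring no other event within 2000 bp (1753 pairs) or adding chr00 (2186 pairs) kept all 8 results within it, although the first lowered the number of pairs from 2149. No paired analysis was possible because each event has 1 value and none per library, and for that reason no replicate could be left out.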
